A study of Homo sapiens with 66 samples.

Results

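HIF-1β binding in HKC8 cells without HIF-2α was compared with that in wild-type (WT) HKC8 cells, using 4 of the 50 HIF ChIP-seq peak lists analysed here: 2 WT and 2 HIF2aKO replicates, all of the HIF-1β antibody and all from cells held in 0.5% oxygen for 16 h. HKC8 is a human renal proximal tubule cell line. HIF2aKO is a clone of these cells in which the HIF-2α gene, EPAS1, was disrupted with CRISPR-Cas9, so the comparison is of 1 edited clone with its parent line, and a property of the clone and an effect of the missing subunit cannot be told apart. The other clone of the same set, HIF1aKO, a clone that lacks HIF-1α, is used only for values set side by side. The members were the HIF-1β sites called in both replicates of a genotype: 5085 WT sites and 1490 HIF2aKO sites. Each WT site was called kept when it overlapped an HIF2aKO site, lost when neither HIF2aKO list had a peak there, and otherwise called in 1 HIF2aKO replicate. An HIF2aKO site with no peak in either WT list was called gained. A peak here is an interval from the MACS peak caller with a score that rises with enrichment (read as a multiple of the negative log10 of the p-value), 50 or more in these lists. No reads were analysed, so the depth of each library is unknown, and a lost site is one without a called peak, not one shown to be unbound.

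HIF is a heterodimer of an oxygen-labile α-subunit, HIF-1α or HIF-2α, and the constitutive HIF-1β subunit (gene ARNT). In oxygenated cells prolyl hydroxylases mark the α-subunits for destruction through the von Hippel-Lindau protein, and in hypoxia the stabilised dimers bind hypoxia response elements (HREs) with the core RCGTG, that is ACGTG or GCGTG. Both α-subunits use the same partner and the same core, so an HIF-1β peak can mark either dimer, and removing HIF-2α asks which HIF-1β sites are still occupied when HIF-1α is the remaining principal partner. HIF-1β also pairs with other proteins of its family, such as the aryl hydrocarbon receptor.

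The sequences below are those at the centres of the best-ranked lost, kept and gained sites, followed by the best-ranked kept sites that had HIF-1α but no HIF-2α in WT and the best-ranked lost sites that had HIF-2α but no HIF-1α in WT. Each is the 201 bases around the midpoint of the site on the plus strand of GRCh37, named by the nearest protein-coding transcription start site (TSS), and capitals mark an HRE core or an AP-1 motif on either strand (CACGT and CACGC are the reverse complements of the HRE cores). Windows that touch an annotated UTR are not printed, so the KDM3A and NARF sites described later are absent, and the second kept site, near NDRG1, is left out for its chromosome. The kept windows are therefore those of places 3, 4 and 5. The windows are shown so that lost and kept sites can be read side by side.
SLC6A6 (lost), chr3:14514183-14514383: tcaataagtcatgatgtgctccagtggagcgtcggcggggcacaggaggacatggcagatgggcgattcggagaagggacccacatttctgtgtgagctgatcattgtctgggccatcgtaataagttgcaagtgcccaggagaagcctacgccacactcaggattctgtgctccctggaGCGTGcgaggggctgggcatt
IGFBP3 (lost), chr7:46597405-46597605: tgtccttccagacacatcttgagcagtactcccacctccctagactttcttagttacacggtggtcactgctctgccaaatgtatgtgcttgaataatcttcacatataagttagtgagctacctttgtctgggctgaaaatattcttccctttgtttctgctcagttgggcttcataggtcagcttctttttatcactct
TBL1XR1 (lost), chr3:177138288-177138488: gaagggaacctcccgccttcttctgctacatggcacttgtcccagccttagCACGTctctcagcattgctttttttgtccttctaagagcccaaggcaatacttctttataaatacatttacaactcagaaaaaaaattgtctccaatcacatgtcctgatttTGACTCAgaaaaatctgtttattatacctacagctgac
C4orf3 (kept), chr4:120221812-120222012: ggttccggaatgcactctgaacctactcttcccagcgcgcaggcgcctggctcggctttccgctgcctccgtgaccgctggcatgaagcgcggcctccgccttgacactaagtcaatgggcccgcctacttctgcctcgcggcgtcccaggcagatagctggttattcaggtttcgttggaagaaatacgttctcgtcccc
MRPL45 (kept), chr17:36442700-36442900: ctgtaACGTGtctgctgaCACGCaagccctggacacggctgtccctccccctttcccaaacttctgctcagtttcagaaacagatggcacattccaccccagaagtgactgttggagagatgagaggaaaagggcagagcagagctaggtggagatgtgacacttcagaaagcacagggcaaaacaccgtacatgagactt
DDIT4 (kept), chr10:74020630-74020830: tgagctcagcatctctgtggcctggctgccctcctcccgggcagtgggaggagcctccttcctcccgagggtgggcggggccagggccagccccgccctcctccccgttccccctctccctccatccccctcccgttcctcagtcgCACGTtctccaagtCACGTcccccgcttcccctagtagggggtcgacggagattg
ATP2B2 (gained), chr3:10593972-10594172: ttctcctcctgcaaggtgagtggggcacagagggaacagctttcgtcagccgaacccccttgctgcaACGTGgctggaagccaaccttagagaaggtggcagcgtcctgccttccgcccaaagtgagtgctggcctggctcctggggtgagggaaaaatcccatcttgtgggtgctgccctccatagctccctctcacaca
TRIM7 (gained), chr5:180618704-180618904: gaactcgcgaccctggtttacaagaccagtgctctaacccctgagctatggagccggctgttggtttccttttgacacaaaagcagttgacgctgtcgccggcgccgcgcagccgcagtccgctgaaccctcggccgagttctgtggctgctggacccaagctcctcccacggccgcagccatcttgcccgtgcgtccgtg
SMS (gained), chrX:21958390-21958590: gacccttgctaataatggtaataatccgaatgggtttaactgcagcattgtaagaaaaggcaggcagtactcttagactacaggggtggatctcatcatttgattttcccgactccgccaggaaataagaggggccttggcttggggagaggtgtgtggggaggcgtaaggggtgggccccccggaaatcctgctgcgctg
VGLL4 (HIF-1-only, kept), chr3:11684311-11684511: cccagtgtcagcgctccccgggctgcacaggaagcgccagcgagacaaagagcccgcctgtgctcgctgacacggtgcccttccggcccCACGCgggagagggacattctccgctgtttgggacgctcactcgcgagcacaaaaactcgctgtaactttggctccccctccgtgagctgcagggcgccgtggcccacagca
HK2 (HIF-1-only, kept), chr2:75060814-75061014: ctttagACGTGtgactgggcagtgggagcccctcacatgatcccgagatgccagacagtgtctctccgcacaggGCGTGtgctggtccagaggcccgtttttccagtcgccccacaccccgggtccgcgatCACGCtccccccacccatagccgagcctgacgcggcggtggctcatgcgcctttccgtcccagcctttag
FAHD1 (HIF-1-only, kept), chr16:1877475-1877675: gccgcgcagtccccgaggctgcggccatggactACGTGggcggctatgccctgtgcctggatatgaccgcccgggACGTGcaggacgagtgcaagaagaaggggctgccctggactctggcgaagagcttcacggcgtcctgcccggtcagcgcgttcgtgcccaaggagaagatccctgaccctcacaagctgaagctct
PSMG3 (HIF-2-only, lost), chr7:1626822-1627022: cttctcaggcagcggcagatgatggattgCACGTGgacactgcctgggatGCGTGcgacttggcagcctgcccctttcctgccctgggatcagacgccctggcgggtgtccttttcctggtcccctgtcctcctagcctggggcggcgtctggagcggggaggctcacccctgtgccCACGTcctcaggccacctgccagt
SH3BP4 (HIF-2-only, lost), chr2:235932949-235933149: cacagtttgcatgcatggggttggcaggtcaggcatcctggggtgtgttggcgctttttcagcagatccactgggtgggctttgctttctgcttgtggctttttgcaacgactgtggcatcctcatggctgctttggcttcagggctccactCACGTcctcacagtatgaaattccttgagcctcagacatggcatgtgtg
SHISAL1 (HIF-2-only, lost), chr22:44756809-44757009: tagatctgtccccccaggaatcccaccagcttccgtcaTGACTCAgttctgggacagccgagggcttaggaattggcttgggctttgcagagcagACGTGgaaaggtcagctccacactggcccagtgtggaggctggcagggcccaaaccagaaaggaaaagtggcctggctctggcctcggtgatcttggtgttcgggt
Among these windows the PSMG3 site, which was lost, holds 4 HRE cores and the HK2 site, which was kept, holds 3, whereas the lost IGFBP3 site, the kept C4orf3 site and the gained TRIM7 and SMS sites hold none. Here and below a CACGTG is counted on each strand, so the PSMG3 count includes an overlapping pair.

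The HIF2aKO lists were shorter than the WT lists. WT replicates 1 and 2 had 6192 and 8268 HIF-1β peaks on the main chromosomes, and HIF2aKO replicates 1 and 2 had 2549 and 2082. The groups did not overlap, and the mean log2 ratio of HIF2aKO to WT was −1.64 (exact permutation test, two-sided, p = 0.33, n = 2 and 2, the smallest p that this design can give; 0.47 after Benjamini-Hochberg adjustment over the 7 tests run). Median peak scores were 112 and 125 in WT and 99.5 and 90.0 in HIF2aKO, and median peak widths ranged from 1016 to 1132 bp over the 4 lists. Over the whole series the lists held 131131 peaks, from 237 to 8268 a list, and no 2 lists were identical.

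In HIF2aKO cells, 2703 of the 5085 WT sites were lost (53.2%), 1373 were kept (27.0%) and 1009 were called in 1 HIF2aKO replicate. Only 24 of the 1490 HIF2aKO sites were gained (1.61%), and 93.2% of HIF2aKO sites lay at a WT site. With full lists the sites called in both HIF2aKO replicates were thus close to a subset of the WT sites. These counts depend on list length. When every list was cut to its best 2082 peaks, 57.3% of WT sites were kept, 23.5% were lost and 242 sites were gained. At that length, 79.8% and 80.2% of the peaks of a WT list were found in the other WT list, against 57.8% and 58.1% in HIF2aKO replicate 2. Full lists gave the same comparison on another scale: HIF2aKO peaks overlapped a WT peak in 83.9 to 89.2% of cases, whereas 58.5% of the peaks of HIF2aKO replicate 1 were found in replicate 2 and 71.7% of those of replicate 2 in replicate 1. Taken as the share of the shorter list of each pair, the overlap was 83.6% between the WT lists, 71.7% between the HIF2aKO lists and 83.9 to 89.2% between genotypes. The overlap within minus between genotypes was −9.36 percentage points with full lists and 12.9 points with equal lists, a change of sign (exact permutation test over the 3 pairings, one-sided, p = 1 and p = 0.33). The share kept ranged from 17.4% without WT replicate 1 to 40.8% without HIF2aKO replicate 2. Leaving out a list also changes the definitions, since every peak of the other list of that genotype then counts as a site.

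Which sites were kept followed their WT rank closely. WT sites were ordered by their mean rank in the 2 WT lists and split into 10 rank groups of 508 or 509 sites, group 1 being the best. In rank group 1, 451 of 509 sites were kept, 88.6% (95% Clopper-Pearson interval 85.5 to 91.2%; these intervals cover counting error only), and 14 were lost. In rank group 5, 80 were kept (15.7%) and 282 were lost (55.4%). In rank group 10, 16 of 508 were kept, 3.15% (1.81 to 5.06%), and 443 were lost. The share lost rose at each step from rank group 1 to rank group 10.

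**Figure D1:**
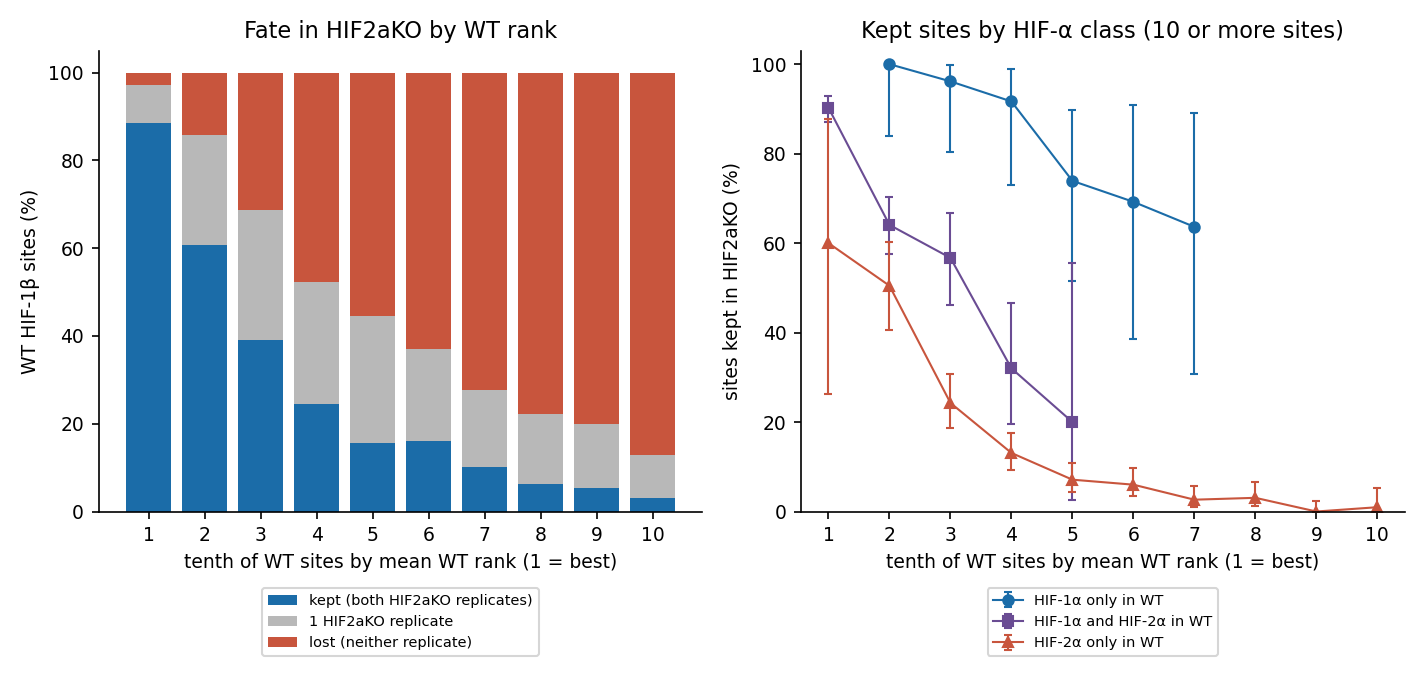
Fate of WT HIF-1β sites in HIF2aKO cells by group of mean WT rank, 1 the best and 10 the last (left, stacked percent of sites), and the percent kept within each rank group by the HIF-α peaks found at the site in WT (right, with 95% Clopper-Pearson intervals, where a group held at least 10 such sites). The kept share falls from 88.6% to 3.15% over the rank groups, and in the groups where both are plotted the sites with HIF-1α alone lie above those with HIF-2α alone.

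The HIF-α subunits found at a site in WT cells also went with its fate. These came from separate HIF-1α and HIF-2α libraries of WT cells in the same set. Of the 133 sites with HIF-1α in both WT replicates and HIF-2α in neither (HIF-1-only), 108 were kept, 81.2% (73.5 to 87.5%), and 6 were lost. Of the 858 sites with both subunits in both replicates, 631 were kept, 73.5% (70.5 to 76.5%), and 84 were lost. Of the 1790 sites with HIF-2α alone (HIF-2-only), 193 were kept, 10.8% (9.38 to 12.3%), and 1265 were lost, 70.7% (68.5 to 72.8%). The largest class, 1798 sites at which a subunit was called in 1 WT replicate alone, had 20.1% kept and 57.0% lost. The 506 sites with no HIF-α peak lay nearer to the HIF-2-only sites, with 15.6% kept and 64.0% lost. The share lost was 61.5 percentage points higher at HIF-2-only sites than at the 1069 sites with HIF-1α in both WT replicates (70.7% against 9.17%). With lists of equal length this difference was 40.4 points.

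Rank and HIF-α class overlapped, so the classes were also read within rank groups. Sites with both subunits were the best-ranked class, with a median WT rank at 7.17% of the list, against 28.7% for HIF-1-only and 39.97% for HIF-2-only sites. In rank group 3, 25 of 26 HIF-1-only sites were kept, 55 of 97 sites with both subunits (56.7%) and 50 of 206 HIF-2-only sites (24.3%). In rank group 5, 17 of 23 HIF-1-only sites were kept (73.9%) and 19 of 267 HIF-2-only sites (7.12%). Thus at like WT rank HIF-1-only sites were kept more often than HIF-2-only sites in each of rank groups 2 to 7. In rank group 1 these classes were small: all 4 HIF-1-only sites were kept and 6 of 10 HIF-2-only sites.

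The HIF-1α lists of the HIF2aKO cells placed HIF-1α at kept sites and seldom at lost ones. HIF-1α was called in both HIF2aKO replicates at 609 of 1373 kept sites, 44.4% (41.7 to 47.0%), at 13 of 1009 sites called in 1 HIF2aKO replicate and at 3 of 2703 lost sites, 0.111% (0.0229 to 0.324%). At kept HIF-1-only sites this was 88 of 108 (81.5%), and at kept sites with both subunits 380 of 631 (60.2%). Where a site with both subunits was lost, HIF-1α too was no longer called in both HIF2aKO replicates at any of the 84 sites, and it was called in either replicate at 9 of them. The study reports slightly lower HIF-1α protein in the HIF-2α knockout cells, possibly from clonal variation. It also reports a small reduction of HIF-1α signal at sites that bind both isoforms. The part of this lower HIF-1α in the lost sites was not tested. The 193 HIF-2-only sites that were kept differed from the other kept sites: HIF-1α was called there in both HIF2aKO replicates at 2 sites and in either at 18, 9.33% (5.62 to 14.3%), so most had an HIF-1β peak and no called HIF-1α peak. The HIF-1α lists were shorter, with 1268 and 912 peaks against 2549 and 2082 for HIF-1β, and the part of list length in this was not tested.

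Among the 858 sites with both subunits, the balance of the subunits in WT went with a smaller difference in fate. These sites were split into 4 groups by the log2 ratio of the HIF-1α to the HIF-2α peak score, averaged over replicates. The group most weighted to HIF-2α, with a median ratio of −2.95, had 154 of 215 sites kept (71.6%) and 25 lost (11.6%, 7.67 to 16.7%). The group most weighted to HIF-1α, with a median ratio of 0.21, had 169 of 214 sites kept (79.0%) and 11 lost (5.14%, 2.59 to 9.01%). The next group after the one most weighted to HIF-2α had 66.4% kept, below it, so the kept share did not rise at every step. Promoter sites were also unevenly spread, with 31.3% within 1 kb of a TSS in the group most weighted to HIF-1α and 3.26% in that most weighted to HIF-2α, and their part in the difference was not tested.

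**Figure D2:**
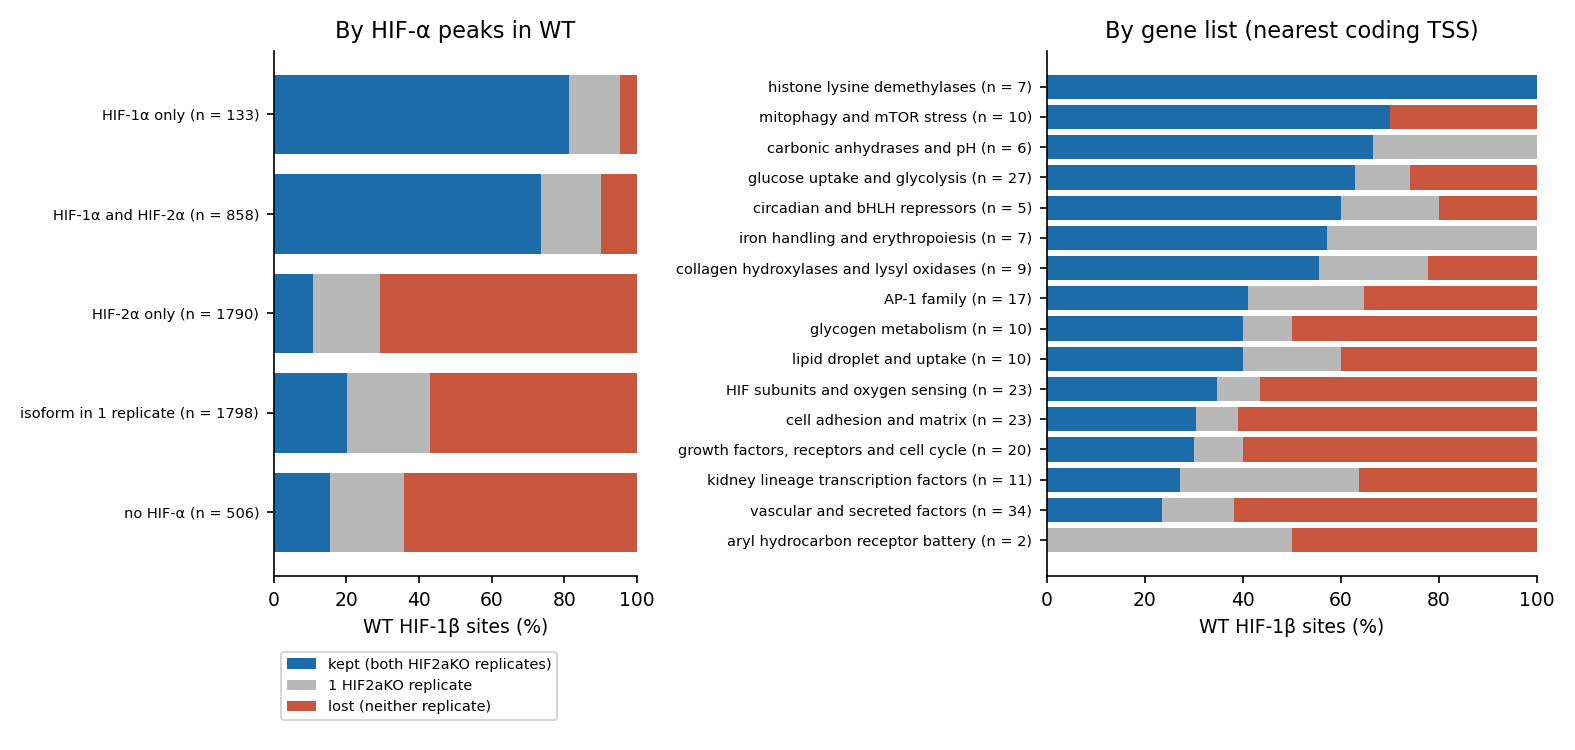
Fate of WT HIF-1β sites in HIF2aKO cells as a percent of sites, by the HIF-α peaks at the site in WT (left) and by gene list, where a site belongs to the gene with the nearest protein-coding TSS (right); n is the number of WT sites. HIF-1-only sites were kept at 81.2% and HIF-2-only sites at 10.8%, and the lists run from 7 of 7 sites kept at histone demethylase genes to 8 of 34 at vascular and secreted factor genes and none of 2 at aryl hydrocarbon receptor genes. Of all WT sites 27.0% were kept.

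Libraries of other experiments were used to ask whether HIF-1α peaks favour kept sites beyond the cells used to define them. For each HIF-α list of 6 other conditions, the peaks at a kept or lost site were counted and the percent at kept sites was taken. The same percent was 34.2% and 33.7% for the WT HIF-1β lists that define the sites. In HKC8 cells at 0.5% oxygen for 6 h, HIF-1α replicates had 96.1% and 99.2% at kept sites, and HIF-2α replicates had 80.7% and 80.1%. Few peaks of these lists met a kept or lost site: 198 and 8 of the 1490 peaks of HIF-1α replicate 1, and 130 and 1 of the 1312 of replicate 2. At 16 h of another HKC8 experiment the values were 96.7% and 99.5% for HIF-1α and 84.2% and 76.6% for HIF-2α. At 48 h and at 3% oxygen for 6 h, HIF-1α lists lay between 97.0% and 100%, and HIF-2α lists between 77.5% and 83.6%. At 3% oxygen the HIF-1α shares rest on 64 peaks at kept and 2 at lost sites in replicate 1 and on 41 and 0 in replicate 2. In each of these HKC8 conditions the 2 HIF-1α lists lay above the 2 HIF-2α lists. RCC4, a renal carcinoma line that lacks the von Hippel-Lindau protein and was grown in normoxia, had 66.9% and 85.7% for HIF-1α and 56.5% and 61.9% for HIF-2α. HIF-1β lists of these HKC8 and RCC4 conditions had 86.6 to 97.6% at kept sites, so a high share was not particular to HIF-1α. HepG2, a liver carcinoma line, overlapped, with 70.3% and 71.2% for the libraries labelled HIF-1α and 77.0% and 67.4% for those labelled HIF-2α.

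**Figure D3:**
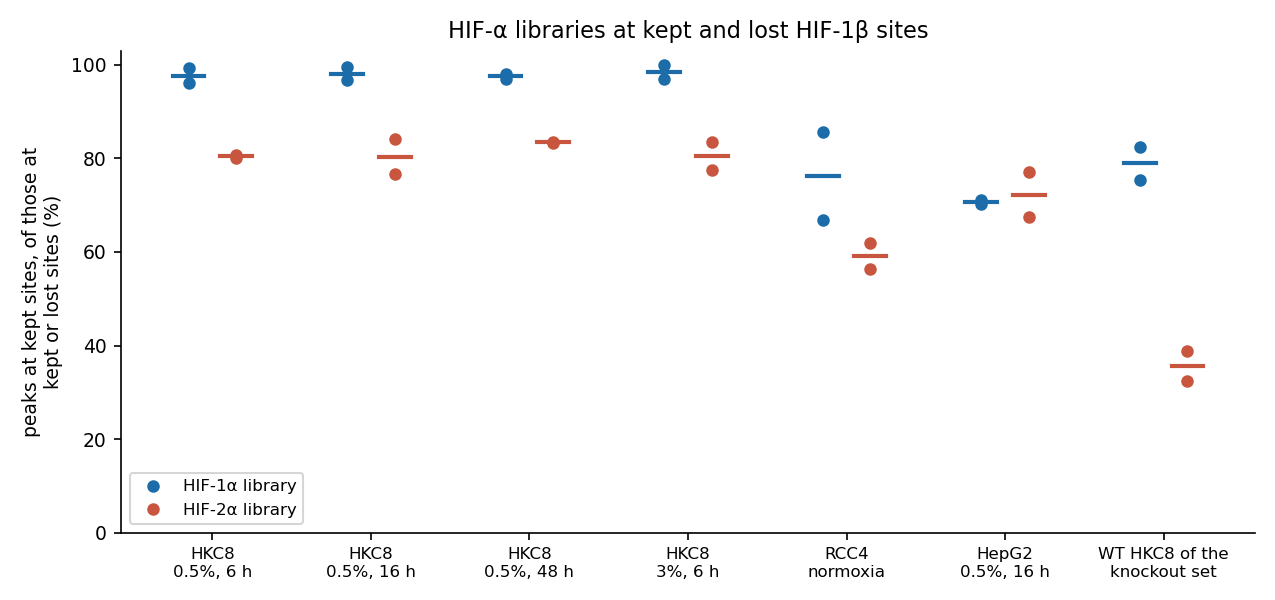
Percent of peaks at kept sites among peaks at kept or lost sites, for each HIF-1α and HIF-2α list of 6 other conditions and of the WT cells of the knockout set; points are replicate libraries and bars their means (n = 2). HIF-1α lists lie above HIF-2α lists in every condition but HepG2, where the 2 kinds overlap.

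Over the 24 lists the share at kept sites was 13.8 percentage points higher for HIF-1α than for HIF-2α (exact permutation test within conditions, two-sided, p = 0.00026, adjusted p = 0.0018 over the 7 tests). Without HepG2 the difference was 16.8 points. With only 1 replicate number of each list it was 10.96 points (p = 0.063) or 16.6 points (p = 0.031) by the same exact test. In the WT cells of the knockout set, which share the experiment with the sites, the values were 75.5% and 82.4% for HIF-1α and 38.9% and 32.4% for HIF-2α, a difference of 43.3 points that the design could not test below p = 0.33 (exact permutation test, n = 2 and 2). With lists of equal length the last difference was 19.6 points.

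The clone without HIF-1α was set beside the clone without HIF-2α at the same sites. Both comparisons share the WT libraries. In HIF1aKO cells, HIF-1β peaks were called at 39.1% and 58.6% of the sites lost in HIF2aKO and at 66.4% and 76.4% of the kept sites, in lists of 3375 and 5781 peaks. HIF-2α peaks in HIF1aKO cells were called at 55.6% and 63.4% of the lost sites and at 75.7% and 79.0% of the kept sites. Of the HIF1aKO peaks at a kept or lost site, 41.8% and 39.5% of HIF-2α peaks and 46.9% and 40.4% of HIF-1β peaks were at kept sites. The HIF-1α lists of HIF2aKO cells had 95.4% and 99.0% at kept sites.

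Kept sites lay nearer to genes. The median distance to the nearest protein-coding TSS was 13.3 kb for kept, 22.6 kb for sites called in 1 HIF2aKO replicate and 31.7 kb for lost sites. Within 1 kb of a TSS lay 347 of 1373 kept sites, 25.3% (22.99 to 27.7%), and 155 of 2703 lost sites, 5.73% (4.89 to 6.68%). Beyond 50 kb lay 24.98% of kept and 38.0% of lost sites. Read by distance, 55.5% of the 625 sites within 1 kb were kept, against 29.7% of those at 1 to 5 kb, 22.9% at 10 to 50 kb and 18.8% at 100 to 500 kb. Whole lists moved the same way: peaks within 1 kb of a TSS were 12.2% and 12.9% of the WT lists and 24.95% and 25.46% of the HIF2aKO lists (difference 12.7 percentage points, exact permutation test, two-sided, p = 0.33, the smallest this design gives, n = 2 and 2). With equal lists the difference was 11.8 points.

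**Figure D4:**
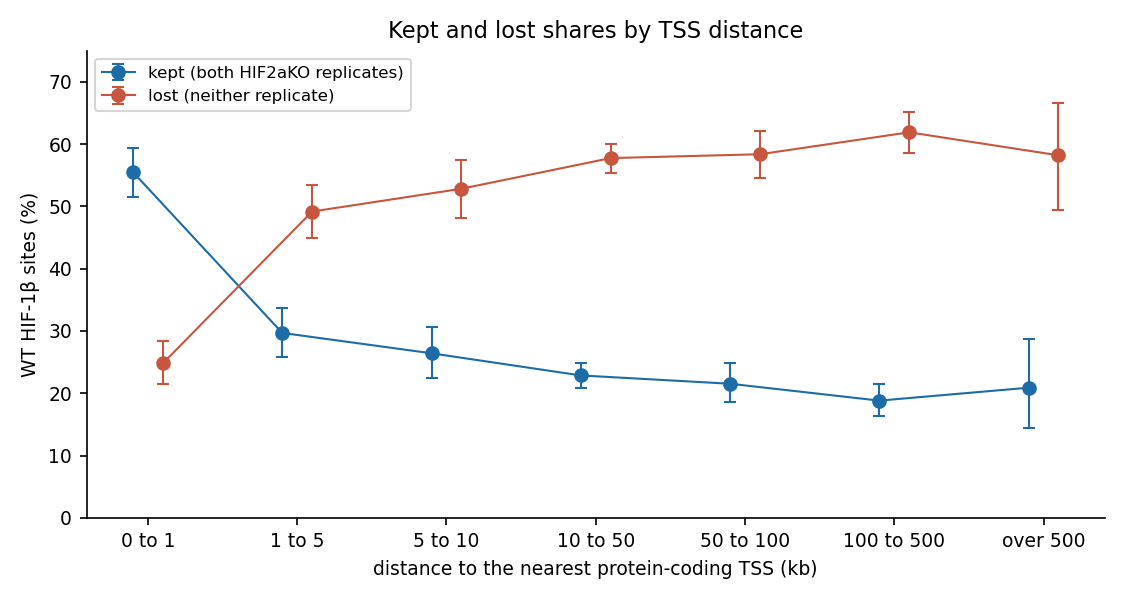
Percent of WT HIF-1β sites kept and lost in HIF2aKO cells by distance to the nearest protein-coding TSS, with 95% Clopper-Pearson intervals. The kept share is 55.5% within 1 kb and between 18.8% and 29.7% in the farther bins.

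Distance and HIF-α class were partly the same split, since 55.6% of HIF-1-only but 3.85% of HIF-2-only sites lay within 1 kb. Within 1 kb, 67 of 74 HIF-1-only sites were kept (90.5%), 98 of 108 sites with both subunits (90.7%) and 12 of 69 HIF-2-only sites (17.4%, 9.32 to 28.4%). Beyond 1 kb the values were 69.5%, 71.1% and 10.52%. A promoter position therefore did not go with a high kept share among HIF-2-only sites, of which 68.1% were lost within 1 kb and 70.8% beyond it. It did among sites with no HIF-α peak in WT, of which 44 of 121 were kept within 1 kb (36.4%) and 35 of 385 beyond it (9.09%).

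The HRE core was more frequent at kept than at lost sites. Each site was searched for ACGTG or GCGTG on both strands in the 201 bp at its centre. An HRE core was present at 833 kept sites, 60.7% (58.0 to 63.3%), at 56.9% of sites called in 1 HIF2aKO replicate and at 1286 lost sites, 47.6% (45.7 to 49.5%). Windows 2000 bp to either side held one at 23.6% for kept and 20.7% for lost sites, and 41.0% of the 78564 windows of this length centred on protein-coding TSSs held one. At least 2 cores were present at 26.3% of kept and 14.9% of lost sites, where a lone CACGTG also counts as 2. Within the 2 HIF-α classes read for it, the presence of either core went with little difference in fate. At sites with both subunits, 73.5% of those with a core and 73.7% of those without were kept. At HIF-2-only sites these shares were 11.8% and 9.92%. Over WT sites of all classes, the shares kept with and without a core were 58.2% and 49.7% within 1 kb of a TSS. Beyond it they were 25.8% and 20.1%. Among whole lists the HRE share was 53.9% and 45.6% in WT and 67.5% and 61.9% in HIF2aKO, a difference of 14.9 points (exact permutation test, two-sided, p = 0.33, n = 2 and 2). The kept minus lost difference in HRE share, 13.1 points, was 7.43 points with equal lists, 6.57 points with peaks of score 100 or more and 7.74 points without HIF2aKO replicate 1.

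AP-1 motifs, TGACTCA or TGAGTCA, are bound by Fos and Jun dimers at many enhancers. They were present at 15.1% of kept (13.3 to 17.2%), 18.04% of sites called in 1 HIF2aKO replicate and 18.7% of lost sites (17.3 to 20.2%), against 4.12%, 3.67% and 3.48% of their flanking windows and 2.46% of TSS windows. The kept minus lost difference of −3.57 points changed sign with equal lists, to 4.02 points. Over whole lists the AP-1 share was 17.9% and 16.6% in WT and 14.4% and 17.2% in HIF2aKO, which overlap (exact permutation test, two-sided, p = 0.67, n = 2 and 2). Over all WT sites, those with an AP-1 motif and no HRE core were lost most often of the 4 combinations, 266 of them (65.7%). The shares lost were 48.9% with both motifs, 47.5% with the HRE core alone and 57.9% with neither. Sites with the AP-1 motif alone were also lost most often among HIF-2-only sites (77.0%) and beyond 1 kb of a TSS (66.9%). They were not at sites with both subunits, where 4 of 49 were lost (8.16%), against 32 of 304 with neither motif (10.53%). Within 1 kb of a TSS they were not either, with 3 of 12 lost, against 57 of 187 with neither motif.

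**Figure D5:**
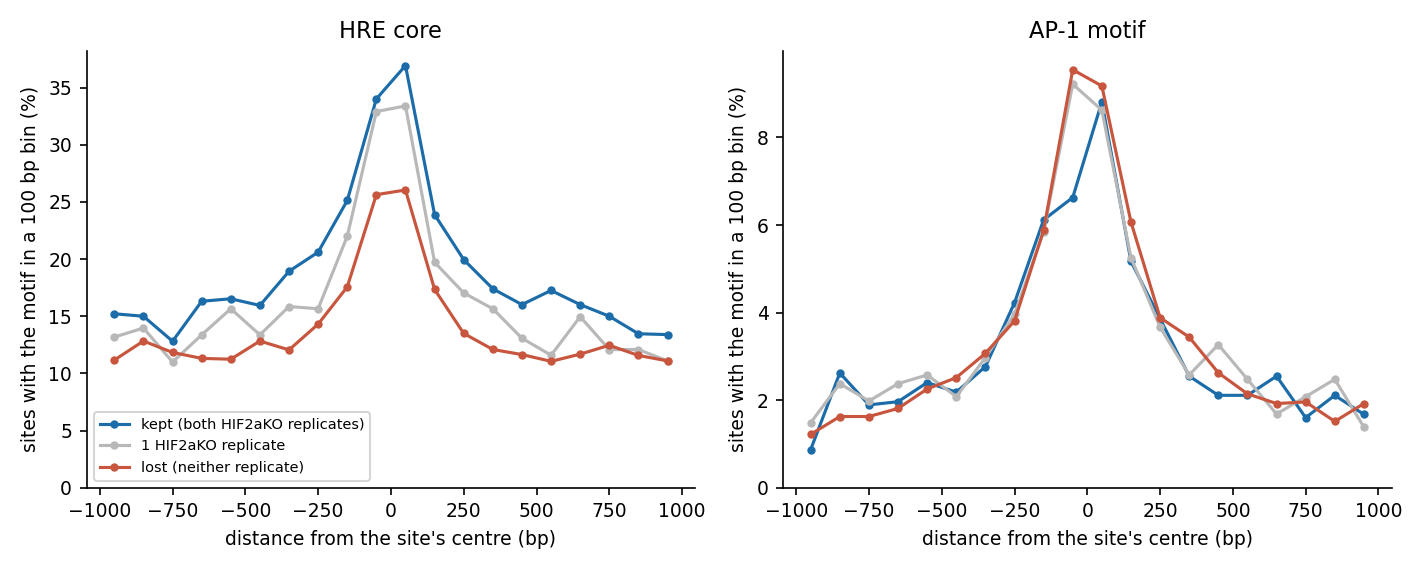
Percent of sites with an HRE core (left) or an AP-1 motif (right) in 100 bp bins by distance from the centre of the site, for kept, lost and the remaining WT sites. In the bin just right of the centre the HRE core was present at 36.9% of kept and 26.0% of lost sites and the AP-1 motif at 8.81% and 9.17%, and in the bin just left of it the HRE core at 34.0% and 25.6% and the AP-1 motif at 6.63% and 9.54%.

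Related motifs were counted in the same windows. The E-box CACGTG, which contains ACGTG on each strand and is bound by other basic helix-loop-helix proteins, was present at 8.59% of kept and 6.77% of lost sites, and at 5.16% of TSS windows. The core of the aryl hydrocarbon receptor element, TNGCGTG, which contains GCGTG, was present at 6.41% of kept and 3.55% of lost sites, and at 4.23% of TSS windows. The GC box GGGCGG was present at 15.2% of kept and 6.99% of lost sites, and at 43.5% of TSS windows. At HIF-2-only sites the 2 HRE cores went with different shares: 73 of 382 sites with GCGTG were kept (19.1%) and 43 of 539 sites with ACGTG (7.98%), some sites holding both. At sites with both subunits these shares were 75.6% and 73.4%.

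The 10 lost sites with the best WT ranks included 8 that had both HIF-1α and HIF-2α in both WT replicates. Of the 509 WT sites in rank group 1, 451 were of that class, so this is not particular to lost sites. The first lost site lies in an intron of SLC6A6, the taurine transporter gene, 0.533 kb from a TSS (chr3:14513020-14515427). Its HIF-1β scores were 1101 and 1957 in WT, ranks 261 and 168, its HIF-2α scores were 832 and 2161, HIF-1α was called in 1 WT replicate with a score of 119, and neither HIF-1β nor HIF-1α was called in HIF2aKO. In HIF1aKO cells HIF-1β scored 621 and 1460 there. The second lies 636 kb from its nearest gene, IGFBP3, which encodes a binding protein of insulin-like growth factors (chr7:46596707-46598757), and had HIF-1β scores of 1161 and 1491 in WT. HIF-1α was still called there in HIF2aKO replicate 1, with a score of 50.6, near the lowest score in the lists. The third lies 193 kb from TBL1XR1, a subunit gene of a corepressor complex, with HIF-1β scores of 852 and 2124 in WT. The others were nearest to TRAM2, ITIH5, KCNMB2, MEF2A, QRSL1, BLCAP and PTGR2, with WT scores of 554 to 1792. At the QRSL1 site, 102 kb from the gene, HIF-1β scored 779 and 1203 in WT and 1269 and 1402 in HIF1aKO.

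Some of these were not called in the HIF1aKO clone either. Of the 14 lost sites in rank group 1, 11 had a peak in at least 1 of the 4 HIF1aKO lists, and 3 had none, those nearest to TBL1XR1, IGFBP3 and BLCAP. In rank group 2, 72 sites were lost, and 8 had no peak in the HIF1aKO lists. The like share of kept sites is not given here, so this is not shown to be particular to lost sites.

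The 10 kept sites with the best HIF2aKO ranks all had both subunits in both WT replicates, as did 451 of the 509 WT sites in rank group 1. Histone demethylase gene KDM3A led, with a site in its UTR 0.036 kb from a TSS (chr2:86667259-86668661), HIF-1β scores of 3100 in both WT lists (a value at which scores are tied) and of 3100 and 2695 in HIF2aKO. Here HIF-1α scored 3100 and 2454 in WT, the best of each list, and 2636 and 1565 in HIF2aKO, ranks 1 and 5. Next came a site 73.5 kb from NDRG1, with HIF2aKO scores of 3100 and 2620, which was called in all 50 lists. The others included sites at C4orf3, MRPL45, DDIT4, PKM, GPI, PFKFB4 and EGLN3. DDIT4 encodes an inhibitor of mTOR signalling, PKM and GPI encode glycolytic enzymes, PFKFB4 a regulator of glycolytic flux and EGLN3 a prolyl hydroxylase that acts on HIF-α. At GPI, where the window holds 9 HRE cores, HIF-1β ranked 15.5 and 82 in WT and 2 and 11 in HIF2aKO, whereas HIF-2α ranked 190 and 2722 in WT. At EGLN3, 12.3 kb from the TSS, the HIF-1β ranks were 15.5 and 37 in WT and 9 and 13 in HIF2aKO. These sites were called in 37 to 50 of the 50 lists, against 6 to 18 for the 10 lost sites. The 2 sets are not matched, and the 50 lists include those that define kept and lost. WT ranks of HIF-1β ran from 15.5 to 106 for the kept and from 142 to 632 for the lost sites.

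Within the kept sites, the order changed with HIF-α class. Kept sites were ranked among themselves, by mean rank in WT and in HIF2aKO. HIF-1-only sites moved up: 99 of 108 rose and the median went from 72.0% to 38.6% of the way down the order. Kept sites with no HIF-α peak in WT moved up as often, 73 of 79, with medians of 94.5% and 68.5%. Kept sites within 1 kb of a TSS also moved up, 287 of 347, with medians of 67.7% and 42.0%. Sites with both subunits moved down slightly, 409 of 631, with medians of 24.4% and 32.7%, and HIF-2-only sites had medians of 66.2% and 72.7%. Since ranks among kept sites sum to a constant, a rise of some classes comes with a fall of others. A class that starts near the foot of the order, such as sites with no HIF-α peak, also has more room to rise than to fall. The part of this in the moves was not tested. Across the 1373 kept sites, Spearman's rho of mean WT rank with mean HIF2aKO rank was 0.60, while scores of the 2 WT replicates had rho 0.87 and those of the 2 HIF2aKO replicates 0.71, given as a description across sites of shared libraries.

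The best-ranked sites with a single α-subunit in WT are named here after their values were seen. Among HIF-1-only kept sites, HK2, the hexokinase gene, had a site 0.34 kb from its TSS with HIF-1β ranks of 472 and 574 in WT and 68 and 113 in HIF2aKO, and no HIF-1β peak in either HIF1aKO list. NARF, VGLL4, FAHD1 and PPP1R3E, a glycogen-targeting phosphatase subunit gene, completed the first 5, and all 5 lay within 1 kb of a TSS. In HIF1aKO cells the NARF site, the first of these, had HIF-1β scores of 104 and 153 and HIF-2α scores of 701 and 485. The VGLL4 site had HIF-2α scores of 187 and 68.1 there, and HIF-1β in replicate 2 alone, at 70.4. FAHD1 and PPP1R3E had no peak in the HIF1aKO lists. Among HIF-2-only lost sites, the first was 16.3 kb from PSMG3, with HIF-1β scores of 543 and 1149 in WT and HIF-2α scores of 249 and 499, and it was called in 4 of the 50 lists. The second lies in an intron of SH3BP4, 29.6 kb from a TSS, with HIF-1β scores of 570 and 1001 in WT, and was called in 17 lists. SHISAL1, HS6ST1 and NDUFS7 followed. HIF-2-only sites that were kept were led by those nearest to HES6, HAUS7, IGFN1, ASB7 and CAMK2B. At HES6, a gene of the Hes repressor family, HIF-1β scored 503 and 1166 in WT and 368 and 459 in HIF2aKO, while HIF-2α scored 72.9 and 312 in WT.

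The 24 gained sites were weak. Their scores ranged from 50.1 to 154, with a median of 61.7. Within 1 kb of a TSS lay 26.8% of all HIF2aKO sites and 13 of the gained sites (54.2%, 32.8 to 74.4%). The first, in an intron of ATP2B2, the gene of a plasma membrane calcium pump, scored 154 and 122 in HIF2aKO, and HIF-1α was called there in HIF2aKO replicate 1 with a score of 141. The next were nearest to TRIM7, SMS, HNRNPDL, YDJC, TMEM114, CLEC16A, H4C8, DIO3 and SREK1. The SMS site, 0.337 kb from the TSS of the spermine synthase gene, scored 121 and 81.8 for HIF-1β and 139 and 79.7 for HIF-1α in HIF2aKO. HIF-1α was called in either HIF2aKO replicate at 13 of the 24 (54.2%) and in both at 2 (8.33%), beside 66.1% and 44.4% of kept sites. In WT cells HIF-2α was called at none of the 24 and HIF-1α at 2 in replicate 1 and 1 in replicate 2. The number gained was 43 or 83 when 1 WT list was left out, and 187 or 185 when 1 HIF2aKO list was. Each peak of the remaining list of that genotype then counted as a site.

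Genes were assigned by the nearest protein-coding TSS, which need not be the gene a site regulates. The 5085 WT sites were nearest to 3222 genes. All sites of 1325 genes were lost (41.1%), all sites of 718 were kept (22.3%), and the other 1179 had sites of more than 1 fate or sites called in 1 HIF2aKO replicate. Of the 604 genes with a WT site within 1 kb, 333 kept all such sites (55.1%) and 142 lost all of them (23.5%). Of the 1325 genes that lost all their sites, 123 had a site within 1 kb. Loss was often partial at loci with many sites: SH3BP4 had 12 WT sites, of which 9 were lost and 2 kept, IGF1R, the type 1 insulin-like growth factor receptor gene, had 9 with 6 lost and 3 kept, and SMAD3, a mediator of TGF-β signalling, had 10 with 6 lost and 4 kept. At ACTBL2 all 6 sites were lost. By chromosome the share lost ran from 43.8% of 121 sites on chromosome 22 to 65.1% of 86 sites on chromosome 13.

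Genes of 16 lists of known HIF targets and pathways were then read for their sites. Of 188 listed genes, 98 were nearest to a WT site, with 221 sites, of which 94 were kept, 34 were called in 1 HIF2aKO replicate and 93 were lost (42.1%, beside 53.2% of all WT sites). Within 1 kb of a TSS, 40 of the 46 sites at listed genes were kept and 3 were lost, beside 55.5% kept and 24.8% lost of all WT sites at that distance. All 7 HIF-1-only sites at listed genes were kept, 62 of the 69 with both subunits, and 3 of the 61 HIF-2-only sites, of which 45 were lost. Over all WT sites the kept shares of these classes were 81.2%, 73.5% and 10.8%, and 70.7% of HIF-2-only sites were lost. The 73.8% lost of the listed HIF-2-only sites was thus near that of all such sites.

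Glucose uptake and glycolysis genes had 27 WT sites, of which 17 were kept and 7 were lost, beside the 27.0% and 53.2% of all sites. All sites were kept at 7 of the 13 genes with a site (GPI, PFKFB3, PFKFB4, ALDOA, GAPDH, PGK1 and PKM), and none of the 13 lost all of its sites. At PGK1, the phosphoglycerate kinase gene, HIF-1β ranks at the promoter were 165 and 100 in WT and 47 and 10 in HIF2aKO. At LDHA, the lactate dehydrogenase A gene, the promoter site ranked 1411 and 444 in WT and 106 and 53 in HIF2aKO, whereas a site 10.7 kb away was lost. ENO1, the enolase 1 gene, likewise kept its promoter site, ranks 300 and 323 in WT and 15 and 8 in HIF2aKO, as well as a site 24.8 kb away, and lost a HIF-2-only site 21.2 kb away, ranks 837 and 1840 in WT. At SLC2A1, the gene of the glucose transporter GLUT1, the kept site 1.65 kb from a TSS ranked 230 and 198 in WT and 866 and 311 in HIF2aKO, and 2 further sites were lost.

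Histone lysine demethylase genes kept all of their 7 sites, at KDM3A, KDM4B, KDM4C, KDM5B, KDM5C, KDM6B and KDM2B, 5 of them within 1 kb of a TSS. For each list of this paragraph the shares of all WT sites stand beside it, 27.0% kept and 53.2% lost. Of all WT sites within 1 kb of a TSS, 55.5% were kept. The counts are small and were not tested. KDM4C and KDM5B were HIF-1-only, and KDM4C went from ranks 556.5 and 562 in WT to 91 and 145 in HIF2aKO. Mitophagy and mTOR stress genes kept 7 of 10 sites, among them 3 at DDIT4 and 3 at BNIP3L, the mitophagy receptor gene. Both BNIP3L sites within 1 kb of a TSS met the same peak of HIF2aKO replicate 1, at rank 1097, and the nearer of them met no peak of replicate 2 itself and was kept through the joined HIF2aKO site. Carbonic anhydrase and pH genes kept 4 of 6 and lost none. The promoter site of CA9, the carbonic anhydrase IX gene, ranked 123 and 85 in WT and 25 and 19 in HIF2aKO. Collagen hydroxylase and lysyl oxidase genes kept 5 of 9, and iron handling genes kept 4 of 7 with none lost, 3 of these 4 near FTH1, the ferritin heavy chain gene, at 45.6 to 77.2 kb.

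Of the 34 sites at vascular and secreted factor genes 21 were lost (61.8%) and 8 kept (23.5%), near the 53.2% and 27.0% of all WT sites. VEGFA, the principal angiogenic growth factor gene, had 2 WT sites, 0.529 and 24.7 kb away, and both were called in HIF2aKO replicate 1 alone. The promoter site ranked 1092 and 1162 in WT and 626 in HIF2aKO replicate 1. All 4 TGFB2 sites, each HIF-2-only, were lost, as were the sites of VEGFC and PDGFB. ANGPTL4, STC1 and STC2 kept their sites nearest to the TSS and each lost at least 1 site farther away, while STC2 also kept a site 127 kb away.

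Growth factor, receptor and cell cycle genes lost 12 of 20 sites and kept 6, also near the shares of all WT sites (53.2% lost and 27.0% kept). EGFR, the epidermal growth factor receptor gene, had 6 WT sites, of which an intronic site 22.4 kb from a TSS was kept, ranks 77 and 37 in WT and 456 and 418 in HIF2aKO, and 4 were lost, 2 of these with both subunits in WT. The site near TGFA, which encodes a ligand of this receptor, ranked 246 and 243 in WT and was called in HIF2aKO replicate 1 alone, at rank 1439. Sites of AXL and CDKN1A, the p21 gene, were HIF-2-only and lost. Cell adhesion and matrix genes lost 14 of 23 sites (60.9%) and kept 7, again near those shares. All sites were lost at 3 of the 11 genes with a site (ITGA6, ITGAV and TNC), beside 41.1% of all genes with a WT site.

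HIF subunit and oxygen-sensing genes lost 13 of 23 sites (56.5%, beside 53.2% of all WT sites). Of these 13, 6 were assigned to CITED2, whose 11 sites lie up to 688 kb away. EPAS1, the gene disrupted in the clone, had 1 WT site, 63.5 kb away, which was kept. HIF1A and ARNT2 lost their sites, and ARNT, VHL, HIF1AN, EGLN1 and EGLN2 were nearest to no WT site. Kidney lineage transcription factor genes kept 3 of 11 sites (27.3%, beside 27.0% of all WT sites), and the PAX8 promoter site was among those kept, with ranks 515 and 546 in WT and 1560 and 728 in HIF2aKO. AP-1 family genes kept 7 of 17 and lost 6, glycogen metabolism genes kept 4 of 10 and lost 5, and lipid genes kept 4 of 10 and lost 4, beside 27.0% kept and 53.2% lost over all WT sites. Circadian genes kept 3 of 5 sites, all 3 near BHLHE40. Of the aryl hydrocarbon receptor list only CYP1B1 had WT sites, 1 lost and 1 called in HIF2aKO replicate 1.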

How the data were processed

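HIF-1β ChIP-seq peak lists of 2 WT and 2 HIF2aKO HKC8 replicates (0.5% oxygen, 16 h) were compared, and the other lists of the series were read at the same sites. Per the labels and the study's methods, the authors trimmed reads with Trim Galore 0.3.3, aligned them to GRCh37 with BWA 0.7.5a-r405, filtered them with SAMtools 0.1.19 and bedtools 2.17.0, marked duplicates with Picard 1.106 and called peaks with MACS against a control (version not given in the sources used here), 1 list a library. The methods also name a second caller, T-PIC, and a filter of peaks found by both callers against background regions. The peaks in these lists carry MACS names, and whether the filter was applied to them is not given in the sources used here. The deposited score of each peak was read as a multiple of −log10 p from its range. Lists carry no read totals, so depth is unknown, and a deeper library can give a longer list. HIF-2α in the knockout clone was not checkable in these lists.

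Peaks on chromosomes 1 to 22, X and Y were used, and 22 peaks of the 4 lists lay elsewhere. A site joined peaks of both replicates that overlapped by at least 1 bp. Distances were to the nearest protein-coding TSS of GENCODE, lifted to GRCh37. Motifs were searched in 201 bp at the centre of each site. Shares carry 95% Clopper-Pearson intervals. Tests over libraries were exact permutation tests with Benjamini-Hochberg adjustment over 7 tests, in Python 3.11.15 with numpy 2.4.6 and scipy 1.17.1, and the scripts were tested on simulated data. Samples were grouped by their labels. The study calls the replicates independent ChIP-seq experiments, and the labels do not say whether they came from separate cultures, so p-values measure the spread between these libraries. Named sites were the 10 lost sites of best mean WT rank, the 10 kept and the 10 gained sites of best mean HIF2aKO rank, and sites nearest to a gene of the 16 lists. The first 5 HIF-1-only kept, HIF-2-only lost and HIF-2-only kept sites and the genes with most lost sites were chosen after their values were seen. The members and lists were chosen with earlier results of these data known. Alternatives were overlap, list length, score minimum, window, definition of loss, TSS and motif settings, each replicate left out and the replicate block. Some items that the naming rule gives are not reported here.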

Additional observations from a re-analysis of the deposited data

How the results depend on the processing

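The share lost, the share kept and the number gained changed with list length and when a list was left out. The promoter, HRE and HIF-α class differences kept their direction under each alternative run. With lists of equal length 23.5% of sites were lost and 57.3% kept, 242 were gained, and the kept minus lost differences were 13.04 points for promoters, 7.43 for HRE and 4.02 for AP-1, the last reversed from −3.57. The class difference was then 40.4 points. Over whole lists the AP-1 difference reversed to 0.288 points and the overlap within minus between genotypes to 12.9 points, and the cause was not tested. With scores of at least 100, 7 sites were gained, the promoter, HRE and AP-1 differences between sites were 21.5, 6.57 and −1.54 points, and the AP-1 difference over lists reversed to 0.186. With 200 bp windows 107 sites were gained and the 3 differences were 21.7, 18.9 and −1.50 points. Counting as lost every site not in both HIF2aKO replicates gave 73.0% lost, 102 gained, and differences of 17.8 for promoters and 10.6 for HRE. The promoter difference was 21.4 points with TSSs within 5 kb and 21.6 with all transcripts. Motifs in the whole interval gave 9.34 points for HRE and −0.359 for AP-1. With HIF-1α in either WT replicate the class difference was 49.1 points.

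With 1 HIF-1β list left out, every peak of the other list of that genotype counted as a site, so the definitions changed too. Without 1 replicate, 59.2 to 67.9% were lost, 17.4 to 40.8% kept and 43 to 187 gained, the promoter difference was 14.5 to 18.5 points, HRE 7.74 to 16.3, AP-1 −3.97 to −2.02 and class 59.6 to 65.9. The HIF-1α minus HIF-2α difference over other experiments was 10.96 to 16.6 points, and it missed the threshold without replicate 2 (exact permutation p = 0.063). The replicate block pairs only 2 numbers that no label ties to a shared batch. With the block the differences were −1.64 for log2 peak number, 12.7 points for promoters, 14.9 for HRE, −1.43 for AP-1, −9.36 for overlap, 13.8 for other experiments and 43.3 for WT libraries, and it changed no call. List length and depth cannot be told apart here.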
